A study of Rattus norvegicus with 12 samples.

Results

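The genes described here encode the machinery that matures peptide hormones and the granin proteins stored with them in secretory granules. They are Pcsk1, Pcsk2, Cpe, Pam, Pcsk1n, Scg5, Chga, Chgb, Scg2 and Scg3, taken by symbol, with every array probe set whose annotation carries only that symbol. Of these 10 genes, 9 were matched by a probe set, among 14218 genes measured in all. Pam had 3 probe sets and the other matched genes 1 each, 11 of the 31099 probe sets on the array. Pcsk1, the convertase that works beside Pcsk2, matched none in the annotation used and was not analysed here.

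RNA was measured in CRI-G1-RS, a rotenone-susceptible subclone, and in CRI-G1-RR, the rotenone-resistant parental clone it came from. Both are rat islet tumour (insulinoma) cells, both were untreated, and both were grown in serum-supplemented high-glucose medium. For each line, 6 samples from different passages were measured, each on an Affymetrix Rat 230 2.0 array of its own, which gives 12 arrays. The contrast is therefore 1 subclone against its parent, and the p-values measure the spread between passages of these lines, not between independently derived clones.

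Peptide hormones are made as long precursors. In the secretory pathway, prohormone convertases cut them after pairs of basic residues, carboxypeptidase E trims the basic residues left behind, and peptidylglycine alpha-amidating monooxygenase turns a C-terminal glycine into the amide that many peptides need for activity. Pcsk2 depends on the chaperone 7B2, encoded by Scg5, while proSAAS, encoded by Pcsk1n, inhibits the other neuroendocrine convertase, Pcsk1. Granins such as chromogranins A and B and secretogranins II and III are acidic proteins that aggregate in the trans-Golgi network, help to form the granule, and are in part cut into peptides of their own. In pancreatic islets these genes serve the maturation of insulin, glucagon and amylin, and several of their products mark neuroendocrine cells in general.

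RS cells carried more transcript of Pcsk2 and Scg2, close to 2-fold in both cases, with smaller increases in Pcsk1n, Scg3 and Chga. Pam, the amidating enzyme, was the 1 gene of the group that was lower in RS cells. Cpe, Scg5 and Chgb did not pass the test. In limma, with Benjamini-Hochberg adjustment across the whole array and a threshold of 0.05, 5 of the 9 matched genes were higher and 1 was lower, where 39.2% of all genes passed (21.0% higher and 18.3% lower). Counted by probe set, 5 of 11 were higher and 1 was lower, where 31.7% of all probe sets passed (16.3% higher and 15.4% lower). All 9 genes were strongly expressed, with a mean signal over the 12 arrays between 1017 and 5817, where the median of all genes was 185.2, and bright genes passed more often. Among the 3868 genes whose mean signal was 500 or more, a limit chosen after the signals of these genes were seen, 57.5% passed (31.3% higher and 26.3% lower), so that 6 of 9 is a share near that background. The median log2 fold change of the 9 genes was 0.25, where that of all genes was 0.02 and that of the 3868 bright genes was 0.03. None of the 9 reached 2-fold, a size that 4.85% of all genes reached with an adjusted p under 0.05.

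**Figure D1:**
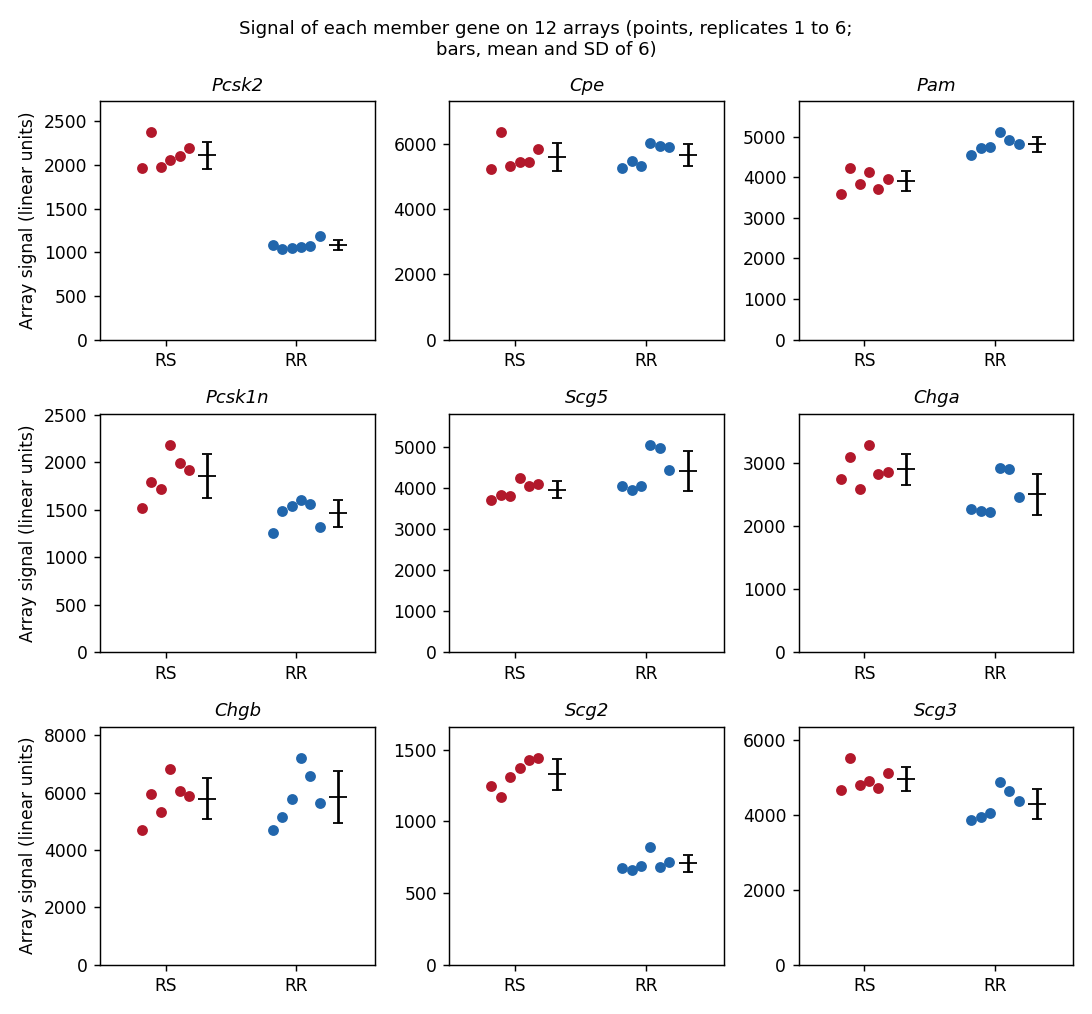
Array signal in linear units of each of the 9 genes on the 12 arrays, with CRI-G1-RS (red) left of CRI-G1-RR (blue) and the mean and SD of 6 arrays beside the points. The points of the lines are separate for Pcsk2, Pam and Scg2 and overlap for the other 6 genes.

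A signal here is the linear brightness value per probe set as deposited, given for each line by its lowest, median and highest array and by its mean and SD. A log2 fold change is RS minus RR after quantile normalization between arrays, on the scale log2(signal + 16). The added 16 hardly matters at the levels of the probe sets that represent these genes. For dim probe sets it shrinks the log2 fold change, so that their differences are understated relative to the signals. Because probes differ in how well they bind, a signal of one gene is not set against that of another. In a culture measured in bulk, fewer cells of a kind and less RNA per cell cannot be told apart.

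The deposited signals had been scaled so that the mean of each array after trimming 2% was 250.1. Pearson correlations over all probe sets were 0.979 to 0.987 between RS arrays, 0.980 to 0.987 between RR arrays and 0.952 to 0.965 between an RS and an RR array. Of the defining islet genes, Ins1, Ins2, Iapp and Gcg gave strong array signals in both lines. The probe sets of Sst and Ppy stayed at the low end of the scale. On these arrays both lines thus gave signals for insulin and glucagon genes. The study's quantitative RT-PCR, however, did not detect Ins2 transcript in RR cells. Of 7 beta cell markers measured, 4 were higher in RS cells and 1 was lower (median log2 fold change of the 7, 1.09). Those higher were Ins2, Nkx6-1, Mafa and Pdx1, the last with a log2 fold change of 1.09 and a limma adjusted p of 5.52e-07. The lower marker was the glucose transporter Slc2a2, which averaged 1.64 in RS cells and 9.70 in RR cells, near the low end of the scale. Its arrays overlapped between the lines (log2 fold change -0.51, limma adjusted p = 0.0436). Of 3 alpha cell markers, Irx2 was lower (-1.30, adjusted p = 1.16e-05), and of 3 enterochromaffin markers Slc18a1 and Ddc (-0.20, adjusted p = 0.0216) were lower. Of 5 gut endocrine markers, Sct and Cck were lower, and Ghrl, the epsilon cell marker, was higher. The part of these marker differences in the results below was not tested. Markers of acinar cells (0 of 7 past the threshold, summed signal 144.5 to 220.5 in RS and 163.0 to 204.8 in RR), fibroblasts (0 of 5, 175.5 to 221.6 in RS and 166.2 to 207.5 in RR), endothelial cells (0 of 3, 49.09 to 83.91 in RS and 54.80 to 86.49 in RR) and leukocytes (0 of 4, 76.67 to 114.2 in RS and 71.20 to 159.8 in RR) were low in both. Of 4 duct cell markers, Krt7 was lower in RS cells, and the sum of the 4 was 3325 to 4228 in RS and 4825 to 5914 in RR, nearly all of it Krt7.

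Upstream sequence is shown for 4 of the genes, the 2 that differed most between the lines (Pcsk2 and Scg2) and a pair of their partners in the granule that did not pass the test (Scg5 and Chgb). Each is the 250 bases before the annotated start in the GRCr8 rat assembly, from RefSeq, 5′ to 3′ on the strand of the gene. Windows of 8 of the 10 genes were used, and those of Pcsk1 and Chga were not analysed here. Capitals mark a match on either strand to TGACGTCA (the cAMP response element), TGACG (its core, which lies within it), TATAAA (the promoter box bound by TBP), GGGCGG (the GC box bound by Sp factors) or CCAAT (the box bound by NF-Y), motifs that were chosen after the sequences had been seen.
Pcsk2, chr3:151333688-151333937, plus strand: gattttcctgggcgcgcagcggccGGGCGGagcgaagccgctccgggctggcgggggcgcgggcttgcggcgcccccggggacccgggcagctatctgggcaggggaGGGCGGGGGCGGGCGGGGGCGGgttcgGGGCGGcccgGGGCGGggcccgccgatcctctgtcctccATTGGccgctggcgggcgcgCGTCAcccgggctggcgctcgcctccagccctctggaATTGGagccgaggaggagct
Scg2, chr9:88256867-88257116, minus strand: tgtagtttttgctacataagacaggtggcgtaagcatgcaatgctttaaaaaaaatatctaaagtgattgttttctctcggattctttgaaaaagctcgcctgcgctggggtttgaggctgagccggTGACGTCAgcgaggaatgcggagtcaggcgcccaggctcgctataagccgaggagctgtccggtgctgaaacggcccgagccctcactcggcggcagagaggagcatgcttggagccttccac
Scg5, chr3:121042796-121043045, minus strand: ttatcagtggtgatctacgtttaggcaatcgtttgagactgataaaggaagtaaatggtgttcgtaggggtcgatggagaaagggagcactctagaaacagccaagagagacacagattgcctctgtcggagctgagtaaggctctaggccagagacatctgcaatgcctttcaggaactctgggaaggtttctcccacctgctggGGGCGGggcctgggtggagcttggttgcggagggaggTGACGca
Chgb, chr3:140496462-140496711, plus strand: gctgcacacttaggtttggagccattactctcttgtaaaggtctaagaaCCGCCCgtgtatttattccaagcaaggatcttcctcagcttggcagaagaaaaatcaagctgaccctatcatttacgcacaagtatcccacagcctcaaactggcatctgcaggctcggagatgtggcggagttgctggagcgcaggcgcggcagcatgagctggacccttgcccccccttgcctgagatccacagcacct

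The Pcsk2 window was by far the richest in G and C of the 4, at 79.6% GC with 34 CpG dinucleotides, where the median of all 33469 rat windows of this length was 51.2% GC. It held 7 matches to GGGCGG, a motif found in 30.5% of all windows, and 2 to CCAAT, found in 34.0%. The Scg2 window, at 53.6% GC, held the complete TGACGTCA starting 123 bases before the start, which 1.6% of all windows hold, and no GC box. Scg5 (53.2% GC) had TGACG 7 bases before the start and 1 GC box, and Chgb (53.6% GC) had 1 GC box and no TGACG. Of the 8 genes with a window, TGACG was found in 6 (Pcsk2, Cpe, Pam, Scg5, Scg2 and Scg3), against 18.2% of all windows, and TATAAA in none, against 12.9%. TGACG thus stood in windows of genes that were higher in RS cells, of Pam, which was lower, and of genes that did not pass. The 8 windows had 53.2% to 79.6% GC, all above the median of all windows, and the shares of all windows were not matched for GC. Since the motifs were also chosen with these sequences seen, the counts are descriptions. A match describes letters only, and the binding of a factor was not measured.

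Pcsk2, the convertase that cuts proglucagon to glucagon and completes the cleavage of proinsulin in rodent islets, was the member that differed most. Its probe set 1387155_at had a lowest, median and highest signal of 1959, 2081 and 2370.5 in RS cells, against 1034, 1071 and 1186 in RR cells. Every RS array lay above every RR array, with a wide gap between the lines. The means were 2109.7 ± 155.2 in RS cells and 1083 ± 53.64 in RR cells (SD, n = 6 each), and the log2 fold change was 0.97 (standard error 0.06, 95% interval 0.84 to 1.10, limma adjusted p = 9.17e-08), a 1.96-fold difference. An exact two-sided permutation test of the normalized log2 values gave p = 0.00216, the smallest that 6 arrays against 6 allow. The difference was larger in size than that of 94.8% of all genes.

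Scg5 encodes 7B2, the chaperone that escorts pro-Pcsk2 through the secretory pathway and is needed for its activation. Its signal on 1367992_at was 3719, 3949.8 and 4263 in RS cells, against 3962, 4261 and 5059 in RR cells. The ranges overlapped, and the 3 brightest values were RR arrays. The mean was 3965 ± 208.4 in RS cells and 4430.2 ± 490.6 in RR cells (SD, n = 6 each), and after normalization the log2 fold change was -0.08 (standard error 0.07, 95% interval -0.23 to 0.07, limma adjusted p = 0.445; exact permutation p = 0.245). An increase of the size seen in Pcsk2 lies far outside that interval, which reflects the spread between arrays only. The probe set of Scg5 was brighter than that of Pcsk2, and whether bright signals understate a difference was not tested.

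Pcsk1n encodes proSAAS, a granin-like protein whose C-terminal part inhibits Pcsk1. On 1367835_at its signal was 1518, 1856 and 2179.6 in RS cells, against 1251, 1511 and 1598 in RR cells. The lines overlapped only where the dimmest RS array fell within the RR range. With means of 1854 ± 230.6 in RS cells and 1459 ± 140.9 in RR cells (SD, n = 6 each), the log2 fold change was 0.35 (standard error 0.10, 95% interval 0.14 to 0.56, limma adjusted p = 0.0141; exact permutation p = 0.00866). How this inhibitor compared with its target could not be read from these arrays, since Pcsk1 had no matched probe set.

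Cpe, the carboxypeptidase that removes basic residues after the convertases have cut, gave nearly the same deposited signals in both lines. They were 5233, 5457 and 6364 on 1386921_at in RS cells, against 5284, 5707 and 6031 in RR cells, with means of 5615 ± 422.7 in RS cells and 5668 ± 332.8 in RR cells (SD, n = 6 each). The lowest and the highest of the 12 values were both RS arrays. After quantile normalization the log2 fold change was 0.07 (standard error 0.05, 95% interval -0.03 to 0.17, limma adjusted p = 0.309), and it was -0.03 with median centring and -0.01 with the deposited scaling alone, so its direction depends on the scaling. The exact permutation test of the normalized values, where the spread within a line was small, gave an unadjusted p = 0.00433. Whether the bright signals of Cpe understate a difference was not tested.

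Pam, which amidates the C-terminus of peptides in a copper- and ascorbate-dependent reaction, was lower in RS cells on its bright probe set. The signal on 1367687_a_at was 3586, 3902 and 4234 in RS cells, against 4555, 4790.1 and 5107 in RR cells. No RS array reached the lowest RR array. The means were 3909 ± 246.8 in RS cells and 4816 ± 188.4 in RR cells (SD, n = 6 each), and the log2 fold change was -0.24 (standard error 0.05, 95% interval -0.34 to -0.14, limma adjusted p = 0.00119; exact permutation p = 0.00216, the smallest possible), a ratio of 0.85 between RS and RR cells.

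The other probe sets of Pam were dim and did not pass. On 1370502_at the signal was 28.00, 34.42 and 92.55 in RS cells, against 32.54, 44.75 and 51.33 in RR cells (log2 fold change -0.10, limma adjusted p = 0.747), and on 1370689_at it was 3.80, 9.00 and 18.33 in RS cells, against 3.29, 10.53 and 18.44 in RR cells (log2 fold change -0.06, limma adjusted p = 0.825). Both ranges overlapped broadly. The value of 92.55 was that of RS replicate 5, and without this array 1370502_at passed the test as lower (-0.29, limma adjusted p = 0.014). On all 12 arrays the fall in Pam rests on 1 probe set, and with all 3 probe sets averaged the log2 fold change was -0.14 (limma adjusted p = 0.199).

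**Figure D2:**
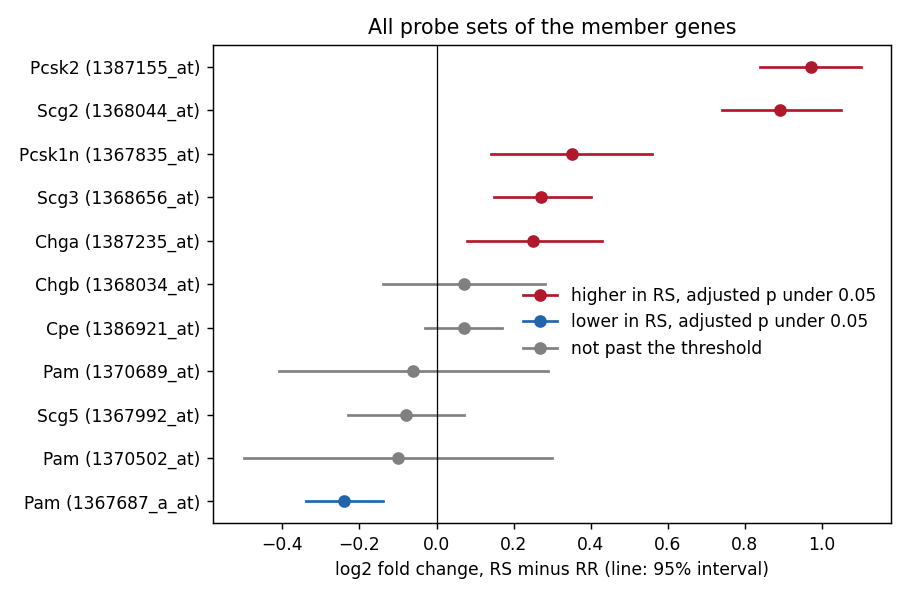
Log2 fold change, RS minus RR, with its 95% interval for each of the 11 probe sets of the 9 genes. Pcsk2 and Scg2 stand apart at 0.97 and 0.89, and the bright probe set of Pam lies below 0 at -0.24.

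Among the granins, secretogranin II was the one with a large difference. Scg2 encodes the precursor of secretoneurin and other peptides, and its signal on 1368044_at was 1167, 1342 and 1445 in RS cells, against 659.5, 682.8 and 821.8 in RR cells. The lines did not overlap. With means of 1328 ± 107.9 in RS cells and 706.1 ± 59.90 in RR cells (SD, n = 6 each), the log2 fold change was 0.89 (standard error 0.07, 95% interval 0.74 to 1.05, limma adjusted p = 6.61e-07; exact permutation p = 0.00216, the smallest possible), a 1.86-fold difference that was larger in size than that of 93.8% of all genes.

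Secretogranin III binds chromogranin A and cholesterol-rich granule membranes. The signal of Scg3 on 1368656_at was 4667, 4841 and 5526 in RS cells, against 3856, 4196 and 4872 in RR cells. The brightest RR array lay within the RS range on the deposited scale, while the normalized values did not overlap. The means were 4948 ± 323.9 in RS cells and 4284 ± 410.2 in RR cells (SD, n = 6 each), and the log2 fold change was 0.27 (standard error 0.06, 95% interval 0.15 to 0.40, limma adjusted p = 0.00186; exact permutation p = 0.00216, the smallest possible). With median centring in place of quantile normalization it was 0.19 and no longer passed (limma adjusted p = 0.111).

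Chromogranin A, the classical marker of neuroendocrine granules, was slightly higher in RS cells. Chga gave 2587, 2844 and 3289.6 on 1387235_at in RS cells, against 2223, 2376 and 2921 in RR cells. The brightest RR arrays reached into the RS range. The means were 2902 ± 251.6 in RS cells and 2507 ± 327.0 in RR cells (SD, n = 6 each), and the log2 fold change was 0.25 (standard error 0.08, 95% interval 0.08 to 0.43, limma adjusted p = 0.0307; exact permutation p = 0.013). The call was not firm, since the adjusted p was 0.158 with median centring, 0.0949 with the deposited scaling alone, and between 0.0147 and 0.0677 when 1 array at a time was left out. It was above 0.05 without RS replicates 2 or 4 and without RR replicates 1, 2, 3 or 6.

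Chromogranin B, its close relative, did not separate the lines on these arrays. Whether its bright signals understate a difference was not tested. Chgb gave 4680.0, 5916 and 6811 on 1368034_at in RS cells, against 4713, 5708 and 7221 in RR cells, ranges that overlapped almost entirely. With means of 5788 ± 719.3 in RS cells and 5845 ± 921.8 in RR cells (SD, n = 6 each), the log2 fold change was 0.07 (standard error 0.10, 95% interval -0.14 to 0.28, limma adjusted p = 0.66; exact permutation p = 0.504), and its sign turned to -0.03 with median centring and to -0.01 with the deposited scaling alone.

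**Figure D3:**
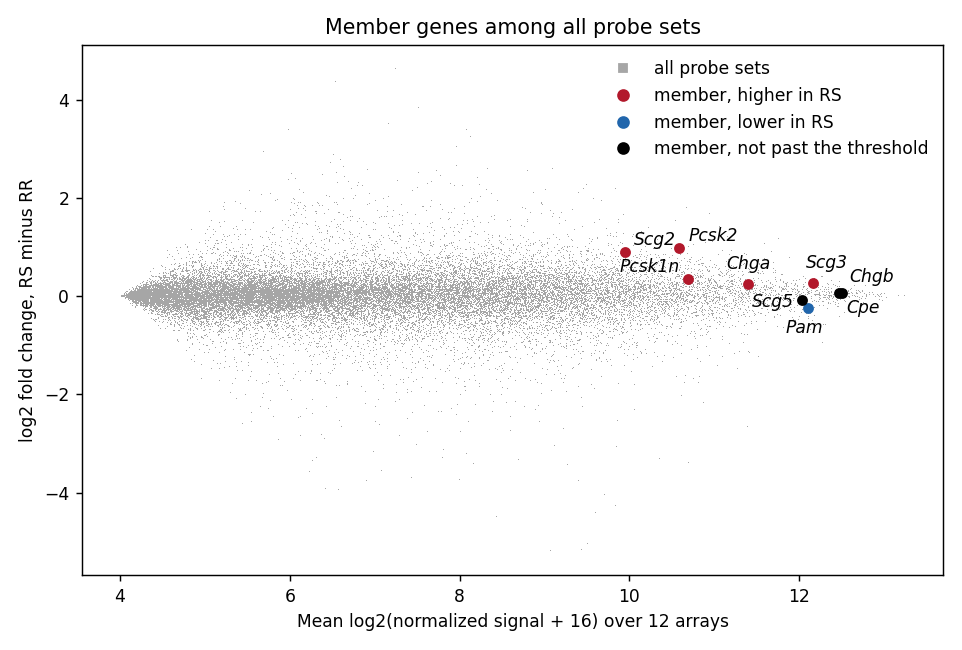
Log2 fold change, RS minus RR, against the mean log2 normalized signal over the 12 arrays for all 31099 probe sets (grey), with the 9 genes coloured by their call. All 9 lie in the bright right part of the plot, and Pcsk2 and Scg2 lie clearly above the centre of the cloud.

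In the ranking of all genes by the size of their change, the 9 genes were spread widely. After Pcsk2 and Scg2, the difference was larger than that of 69.3% of genes for Pcsk1n, 60.3% for Scg3, 57.5% for Chga and 55.9% for Pam, and larger than that of only 22.6% for Scg5, 20.4% for Chgb and 19.8% for Cpe. Signals of 3 of the 9 genes did not overlap between the lines, where this held for 27.2% of all genes and for 45.1% of the 3868 bright genes.

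The genes also varied together within a line on the deposited scale. The coefficient of variation over 6 arrays was between 5.26% (Scg5) and 12.44% (Pcsk1n) in RS cells and between 3.91% (Pam) and 15.77% (Chgb) in RR cells. Replicate 4 was the highest RR array for 8 of the 9 genes, with Pcsk2 the exception, and replicate 1 was the lowest RS array for 7 of them. RR replicates 1, 2 and 3 all lay below RR replicates 4, 5 and 6 for Cpe, Pam, Scg5, Chga and Scg3, and not for the others. On the normalized scale this held for Scg5, Chga and Scg3. The cause of this split was not tested. After quantile normalization, RR replicate 4 was the highest RR array for 4 genes and RS replicate 1 the lowest RS array for 3. RS replicate 4 was then the highest RS array for 6 genes, where it was so for 4 on the deposited scale. How often each array is the extreme over all genes was not counted, so these counts may reflect whole arrays.

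The genes around this machinery were taken from lists of convertases, enzymes, cofactor suppliers, granule proteins and prohormones. Their counts stand against the 39.2% of all genes that passed, 21.0% higher and 18.3% lower, and for lists of bright genes against the 57.5% among genes with a mean signal of 500 or more. Of the 7 other proprotein convertases, 6 had a probe set, and 1 was higher and 1 lower (median log2 fold change 0.12, against 0.02 for all genes). Pcsk4, known from germ cells, had 227.7 ± 18.22 in RS cells and 183.9 ± 14.08 in RR cells (log2 fold change 0.28, limma adjusted p = 0.00814), and Pcsk7, a convertase of the constitutive pathway, had 183.8 ± 30.39 in RS cells and 233.2 ± 27.97 in RR cells (-0.33, adjusted p = 0.0321). Furin, the convertase of the trans-Golgi network in most cells, averaged 324.3 in RS cells and 306.9 in RR cells (0.05, adjusted p = 0.748). Nor did Pcsk5 (0.27, adjusted p = 0.586), Pcsk6 (-0.20, adjusted p = 0.43) or Mbtps1, the site-1 protease (0.18, adjusted p = 0.203), pass the test.

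Further peptidases and modifying enzymes of peptide maturation went both ways, with 3 higher and 7 lower of 18 measured among 20 listed (median -0.05). The carboxypeptidases Cpn1 (765.6 ± 37.13 in RS cells and 526.3 ± 32.69 in RR cells, log2 fold change 0.52, limma adjusted p = 1.15e-05) and Cpd (0.21, adjusted p = 0.0118), which overlaps with Cpe in its specificity, were higher, as was the endothelin-converting enzyme Ece1 (0.36, adjusted p = 0.00407). The tyrosylprotein sulfotransferase Tpst2, which sulfates peptides such as cholecystokinin, fell to 749.2 ± 42.93 in RS cells, against 1473 ± 211.1 in RR cells (-0.95, adjusted p = 2.48e-06). The aminopeptidase Rnpep fell to 1321 ± 55.63 in RS cells, against 2306 ± 45.03 in RR cells (-0.77, adjusted p = 1.04e-07). Ide, which degrades insulin, was also lower (-0.52, adjusted p = 3.44e-05), although 1 of its 3 probe sets did not differ (-0.00, adjusted p = 0.984). Dpp4, which inactivates incretins, was lower on a dim probe set (-0.54, adjusted p = 0.0017) and was not on the other (0.14, adjusted p = 0.323).

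The enzyme encoded by Pam needs copper and ascorbate, and the 6 genes listed for their supply were all measured, with 1 higher and 4 lower, where 18.3% of all genes were lower (median log2 fold change -0.43, against 0.02 for all genes). Slc31a1, the copper importer of the plasma membrane, rose to 377.2 ± 41.80 in RS cells, against 222.0 ± 13.71 in RR cells (0.71, limma adjusted p = 1.00e-05). Lower in RS cells were Atox1, the cytosolic copper chaperone (448.7 ± 35.00 in RS cells and 636.3 ± 36.57 in RR cells, -0.49, adjusted p = 5.73e-05), Atp7a, the pump that moves copper into the Golgi (-0.45, adjusted p = 0.0107), and the ascorbate transporter Slc23a1, which was dim (44.81 ± 9.33 in RS cells and 93.63 ± 15.02 in RR cells, -0.87, adjusted p = 4.22e-05). The other listed ascorbate transporter, Slc23a2, had 616.0 ± 44.64 in RS cells and 663.9 ± 78.15 in RR cells. Neither of its probe sets passed (-0.11, limma adjusted p = 0.35, and 0.46, adjusted p = 0.259). Cyb561, the granule membrane cytochrome that regenerates ascorbate, fell to 333.7 ± 18.84 in RS cells, against 447.2 ± 17.19 in RR cells (-0.42, adjusted p = 5.30e-05). The copper importer and the copper-handling proteins behind it thus differed in opposite directions. Atp7a passed on its brightest probe set, and its other 2 did not (adjusted p = 0.114 and 0.798), while Slc31a1 passed on 2 of 4, all with a positive log2 fold change.

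Of 7 further granin-like and granule cargo genes, 1 passed. Nucb2, the precursor of nesfatin, rose to 2469 ± 117.7 in RS cells, against 1555 ± 226.1 in RR cells (log2 fold change 0.71, limma adjusted p = 4.02e-05). Vgf, a granin-like precursor, had 1652 ± 166.4 in RS cells and 1523 ± 407.7 in RR cells (0.16, adjusted p = 0.466). Proteins of the granule membrane and of granule biogenesis were higher for 7 and lower for 1 of 19 measured among 20 listed (median 0.11). The increases of largest size were in Sorl1, a sorting receptor (934.4 ± 88.85 in RS cells and 422.1 ± 71.82 in RR cells, 1.12, adjusted p = 3.83e-06), in Cadps, which primes dense-core granules for release (1064 ± 71.54 in RS cells and 586.3 ± 57.70 in RR cells, 0.84, adjusted p = 1.55e-06), and in the granule GTPases Rab27a (0.58, adjusted p = 5.68e-05) and Rab3a (0.57, adjusted p = 9.50e-05). The vesicular monoamine transporter Slc18a1 was lower (-0.66, adjusted p = 0.00246). The 8 probe sets of Sorl1 ranged from -0.13, on the dimmest, to 1.63, and Rab3a and Cadps each passed on the brighter of 2 probe sets.

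A few substrates of this machinery (Ins2, Penk and Sct) had a log2 fold change larger in size than that of any member, and that of Sct (-4.50) was by far the largest. Of the 7 islet prohormones, Ins2 rose to 1759.7 ± 172.7 in RS cells, against 722.4 ± 205.6 in RR cells (log2 fold change 1.30, limma adjusted p = 2.97e-05), and Ghrl, the ghrelin precursor, had a low signal in both lines (39.07 ± 12.71 in RS cells and 12.77 ± 3.75 in RR cells, 0.91, adjusted p = 3.56e-04). Ins1, at 6495 ± 977.9 in RS cells and 7118 ± 309.1 in RR cells, did not pass (-0.06, adjusted p = 0.408), and neither did Gcg, the Pcsk2 substrate proglucagon, at 6589 ± 576.0 in RS cells and 7329 ± 362.2 in RR cells (-0.07, adjusted p = 0.327). The study, by contrast, reported Ins1 as higher in RS cells, on the same probe set with its own normalization and by quantitative RT-PCR. The study's RT-PCR difference for Ins1 was far larger than its array difference. Its RT-PCR did not detect Ins2 in RR cells. Iapp, the amylin precursor, which Pcsk2 cuts and Pam amidates, had 2733 ± 341.6 in RS cells and 2342 ± 457.7 in RR cells (0.28, adjusted p = 0.0992). Ins1, Gcg and the other strongest prohormone signals came close to the top of the scale, where the highest value on an array was 8738 to 11366. Chgb (highest array 7221) and Cpe (highest array 6364) also reached into the range of the Ins1 signals. Whether closeness to the top of the scale hides a difference between the lines was not tested for any of these genes. Sst (-0.19, adjusted p = 0.404) and Ppy (0.04, adjusted p = 0.835) gave signals near the low end of the scale.

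Of 19 prohormones of gut and neural peptides that end in an amide, 0 were higher and 4 were lower (median -0.00), and most of the 19 were near the low end of the scale. Secretin was nearly lost from RS cells. Sct gave 45.02, 55.37 and 72.81 in RS cells, against 1328, 1552 and 2302 in RR cells, with a mean of 57.05 ± 10.09 in RS cells and 1658 ± 351.8 in RR cells (log2 fold change -4.50, limma adjusted p = 9.02e-11). Cck, the cholecystokinin precursor, which is sulfated as well as amidated, fell to 1047 ± 114.8 in RS cells, against 1475 ± 134.7 in RR cells (-0.49, adjusted p = 6.13e-04). The calcitonin genes Calca (-0.33, adjusted p = 0.0294) and Calcb (-0.64, adjusted p = 0.011) were dim and lower. Of the dimmer probe sets of Calca, one passed (-0.45, limma adjusted p = 0.0429) and the other did not (-0.26, adjusted p = 0.362). Of 11 measured prohormones of other gut and neural peptides, 3 were higher and 0 lower (median 0.13). Penk, the enkephalin precursor, rose to 121.8 ± 19.96 in RS cells, against 25.03 ± 18.46 in RR cells (1.83, adjusted p = 3.54e-05), Edn1 was slightly higher (0.32, adjusted p = 0.00271), and Nppb passed at very low signals (0.27, adjusted p = 0.048). Cartpt, among the brightest of the prohormones, had 7776 ± 898.5 in RS cells and 8075 ± 449.8 in RR cells (0.04, adjusted p = 0.608).

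**Figure D4:**
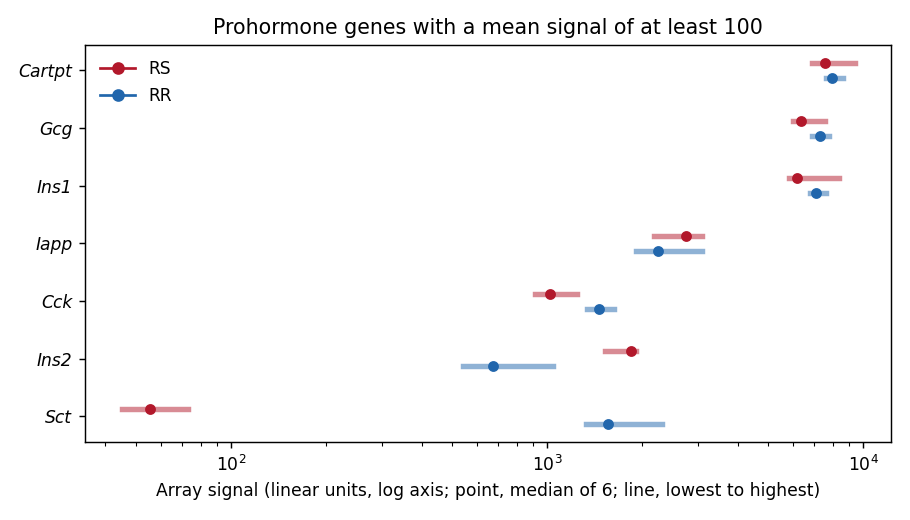
Array signal in linear units, on a log axis, of the 7 prohormone genes whose mean signal was 100 or more, as the median (point) and range (line) of 6 arrays with CRI-G1-RS (red) above CRI-G1-RR (blue). The lines are separate for Sct, Cck and Ins2 and overlap for Cartpt, Gcg, Ins1 and Iapp.

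Transcription factors tied to neuroendocrine secretory genes were higher for 7 and lower for 2 of 18 measured among 24 listed (median log2 fold change 0.03). Rcor2, a corepressor of the REST complex, had 215.6 ± 56.98 in RS cells and 19.09 ± 6.03 in RR cells (2.70, limma adjusted p = 8.88e-08). Rest itself was near the low end of the scale in both lines and did not pass (-0.14, adjusted p = 0.644). Nor did Rcor1 (-0.07, adjusted p = 0.723) or Rcor3 (-0.12, adjusted p = 0.576). Mafa, an activator of insulin genes, had 1908 ± 177.0 in RS cells and 426.4 ± 137.2 in RR cells (2.17, adjusted p = 9.48e-07), and the islet factors Pax4 (1.45, adjusted p = 3.17e-07) and Nkx6-1 (1.31, adjusted p = 1.20e-04) were higher as well. Pax6, an activator of glucagon and Pcsk2 genes in islet cells, was lower, with 1829.9 ± 54.35 in RS cells and 2580.4 ± 176.3 in RR cells (-0.46, adjusted p = 2.52e-05). Crem, which binds cAMP response elements, had 1239 ± 136.7 in RS cells and 1945 ± 225.2 in RR cells (-0.63, adjusted p = 1.19e-04), and its 6 probe sets ranged from -1.56 to -0.26. Several islet factors of this list are named by the study from the same arrays, and the list is not independent of them.

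**Figure D5:**
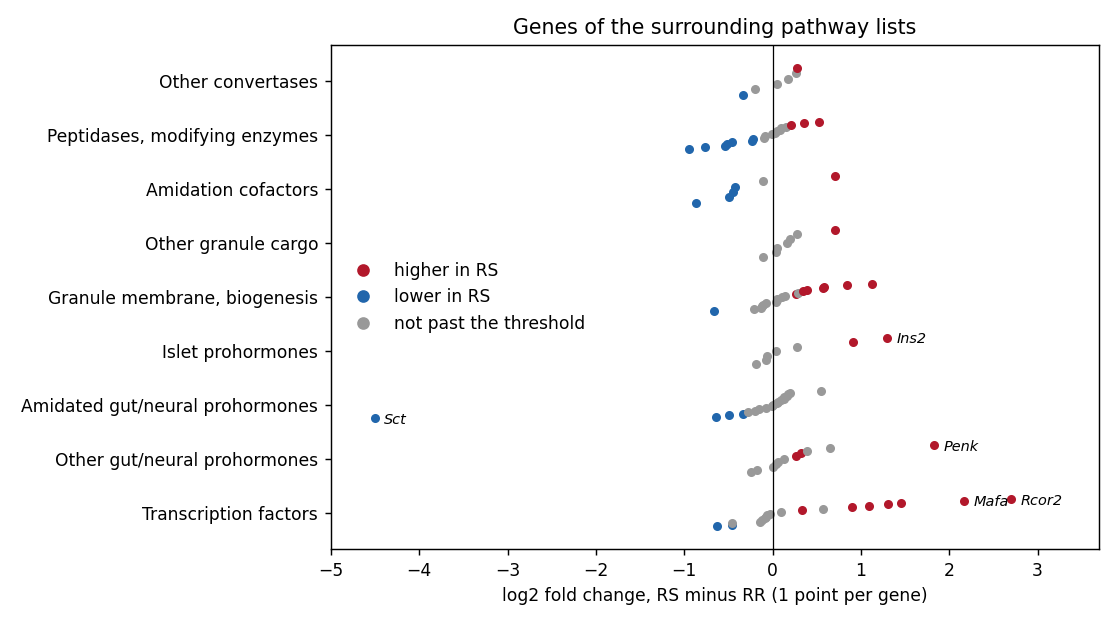
Log2 fold change, RS minus RR, of each measured gene of 9 lists of surrounding genes, coloured by the call at an adjusted p of 0.05. The extremes are Sct at -4.50 and Rcor2 at 2.70, and 4 of the 6 amidation cofactor genes lie below 0 with a call.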

How the data were processed

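Total RNA from 6 CRI-G1-RS and 6 CRI-G1-RR samples was amplified, biotin-labelled and hybridized to 12 arrays. The authors deposited a linear signal per probe set and array, scaled to a common level on every array (GCOS 1.4 in the submitters' processing notes). These are not the log2 values of robust multi-chip averaging given in the study's methods, so they were quantile normalized and log2(signal + 16) was modelled on cell type alone in limma (3.58.1, under R 4.3.3), without a filter. P-values were adjusted over 31099 probe sets. Probe sets with 1 gene symbol numbered 20832, and a gene is represented by its brightest one. No detection call or scan date entered, and the number of arrays limits the precision.

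Members and lists were chosen with earlier results of these data known. Named were all members, up to 4 genes per list and direction of largest change among those past 0.05, every convertase and islet prohormone, and for the 2 members of largest change the 3 genes most correlated over the arrays at a mean signal of 100 or more. Genes named outside this rule (Vgf, Cartpt, Slc2a2, Slc23a2, Rest, Rcor1, Rcor3, Pdx1, Irx2, Ddc and Krt7) were chosen after their values were seen. The alternatives were 2 other scalings, a pseudocount of 1, a signal minimum of 50, removal of probe sets with _s_at, _x_at or _a_at names, array weights, an intensity trend, a replicate block, other choices of probe set, and leaving out each array.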

Additional observations from a re-analysis of the deposited data

Results flagged for a closer look

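The 22 sets of 6 arrays (11 probe sets in each line) were searched for an array far from the others, taken as a gap to its nearest neighbour, divided by the range, above the Dixon limit for 6 values, and chance alone marks about 1 in 20 such sets. In Pcsk2, RR replicate 6 gave a signal of 1186, where the next highest RR array gave 1083 (gap over range 0.676). This array lies toward the RS values but below all of them, and without it the difference keeps its call. In Scg2, RR replicate 4 gave 821.8, where the next gave 717.4 (gap over range 0.643), and this array was also the highest RR array for 7 of the other genes on the deposited scale. On the dim Pam probe set 1370502_at, RS replicate 5 gave 92.55, where the next gave 40.05 (gap over range 0.813), and without this array that probe set passed the test as lower in RS cells (log2 fold change -0.29, limma adjusted p = 0.014), which brings the number of lower probe sets to 2.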

How the results depend on the processing

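Pcsk2, Scg2, Pcsk1n and Scg5 kept their direction and their side of the threshold under all 22 alternatives. When 1 array at a time was left out, the log2 fold change was 0.94 to 0.99 for Pcsk2, 0.87 to 0.93 for Scg2, 0.30 to 0.41 for Pcsk1n, 0.26 to 0.31 for Scg3, 0.21 to 0.29 for Chga, -0.26 to -0.23 for Pam, -0.10 to -0.05 for Scg5, 0.05 to 0.08 for Cpe and 0.02 to 0.12 for Chgb. Between 4 and 5 of the genes were then higher, and 1 gene and 1 to 2 probe sets lower.

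Median centring gave 0.20 for Chga (limma adjusted p = 0.158), 0.19 for Scg3 (0.111), -0.03 for Chgb and -0.03 for Cpe, and left 3 genes, each with 1 probe set, higher. The deposited scaling alone gave 0.22 for Chga (0.0949), -0.01 for Chgb and -0.01 for Cpe. The cause was not tested. Over all probe sets the median log2 fold change was 0.01 in the fit reported, -0.01 with median centring and 0.01 with the deposited scaling.

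Without probe sets with _s_at, _x_at or _a_at names, Pam is represented by a dim probe set, with a log2 fold change of -0.10 (limma adjusted p = 0.747), and 0 genes and 0 probe sets were lower. With the mean of all probe sets of a gene, Pam was at -0.14 (0.199) and again 0 genes were lower.

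The labels say that passages were collected in pairs without saying which samples form a pair. Deviations of same-numbered arrays from their line means correlated between -0.063 and 0.077, and 3 of 12 arrays correlated best with their own number, so the numbers were not taken to pair the samples. With the replicate block, Pcsk2 stayed at 0.97, Scg2 at 0.89, Pcsk1n at 0.35, Scg3 at 0.27, Chga at 0.25, Pam at -0.24, Scg5 at -0.08, Cpe at 0.07 and Chgb at 0.07, with 5 genes higher and 1 lower, and 4730 probe sets of the array were higher and 4474 lower in place of 5083 and 4777. The block changed no call of these genes.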

Other observations

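The genes whose normalized log2 values ran closest to those of Pcsk2 over the 12 arrays, among 8683 genes whose mean signal was 100 or more, were Ppp3r1, the regulatory subunit of calcineurin (Pearson r = 0.993), Plac8 (0.993) and the splicing factor Prpf19 (0.992). For Scg2 they were Dsg2, a desmosomal cadherin (0.985), Arg1, the arginase of the urea cycle (0.984), and the ubiquitin-conjugating enzyme Ube2e3 (0.983). All 6 genes were higher in RS cells by limma, from a log2 fold change of 0.47 for Ppp3r1 (adjusted p = 1.08e-05) to 1.08 for Arg1 (adjusted p = 5.88e-07). These correlations are descriptions, since the arrays fall into 2 lines and any gene that separates them well scores highly. On the same measure, Pcsk2 and Scg2 had r = 0.959 with each other, and Pam had -0.940 with Pcsk2 and -0.928 with Scg2.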
